A study of Mus musculus with 4 samples.

Results

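The Bcl-2 family decides whether a cell commits to death through its mitochondria, and 10 of its genes were followed here in cultured mouse Schwann cells. They were the BH3-only genes Bbc3, Pmaip1, Bcl2l11, Hrk and Bmf, the effector genes Bax and Bak1, and the pro-survival genes Mcl1, Bcl2 and Bcl2l1. Members were all probes for mouse transcripts that the array design assigns to these 10 names, which gave 13 of 39429 different probes and 10 of 31093 gene names. The cells, the immortalized mouse Schwann line IMS32, were kept for 1 h in DMEM with 5% FBS that held 5 or 15 mM glucose and either 1 mM or no added pyruvate. The 4 conditions are written by mM glucose and pyruvate as [Glc 5/Pyr (+)], [Glc 5/Pyr (−)], [Glc 15/Pyr (+)] and [Glc 15/Pyr (−)]. Total RNA, labelled with Cy3, went onto 1 one-colour array per condition, and all groups share the cell line, the basal medium, the serum and the incubation time. With 1 array per condition nothing below has a check between cultures, and the number of arrays limits the precision.

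BH3-only proteins sense damage, loss of growth factors or metabolic stress. They bind the pro-survival proteins through a short helix, the BH3 domain, and release or activate Bax and Bak, which then permeabilize the outer mitochondrial membrane so that cytochrome c reaches the cytosol. Many BH3-only genes are controlled by transcription (Bbc3 and Pmaip1 by p53, Bcl2l11 and Bmf by forkhead factors and stress kinases), whereas Bax, Bak and Mcl-1 are controlled largely at the level of the protein. An mRNA level therefore covers only part of the family's control.

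The array reads each gene through probes of 60 bases, and the sequences below show which stretch of the mRNA stands behind the values that follow. Of the Bcl2l11 pair, A_51_P484880 lies over the region that encodes the BH3 domain of Bim, with the codons of its conserved core in capitals, and A_52_P348214 is assigned to another transcript variant, shown by its last 30 bases. The file gives no genome position for either. The Bcl2 probe A_51_P380013 (mm9 chr1:108608970-108609029, minus strand) and the Bcl2l1 probe A_52_P510877 (mm9 chr2:152655185-152655244, minus strand) lie in coding sequence. The Bmf probe A_55_P2029106 (mm9 chr2:118354496-118354555, minus strand) is shown by its last 30 bases, with the polyadenylation signal AATAAA in capitals. That signal is found in 4965 (12.6%) of all 39429 probes.
Bcl2l11 A_51_P484880: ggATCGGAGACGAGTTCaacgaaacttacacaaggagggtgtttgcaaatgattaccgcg
Bcl2l11 A_52_P348214: ttaaccaagtggcacaaaatatccacggtg
Bcl2 A_51_P380013: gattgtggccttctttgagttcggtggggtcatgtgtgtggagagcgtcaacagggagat
Bcl2l1 A_52_P510877: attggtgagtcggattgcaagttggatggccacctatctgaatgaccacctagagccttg
Bmf A_55_P2029106: ggtacagtttttAATAAAaccatttaaagc

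Of the 13 probes, 11 probes of 8 genes were well above background on all 4 arrays, and 2 probes were well above it on none. The scanner file scores each spot against its local background, and between 28470 and 30344 of all probes passed on each array. The lowest processed intensity that passed was 8.60 to 10.5. Pmaip1, which encodes Noxa, read 1.81 in [Glc 5/Pyr (+)], 2.08 in [Glc 5/Pyr (−)], 2.20 in [Glc 15/Pyr (+)] and 5.91 in [Glc 15/Pyr (−)]. Hrk, which encodes Harakiri, a BH3-only protein known mainly from neurons, read 4.03, 2.48, 2.60 and 2.65 in the same order. Both genes stayed below the lowest passing signal in every condition, so no fold is given for them. No spot was saturated. Probes differ in how well they bind, so intensity is compared here only for 1 probe across arrays.

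**Figure D1:**
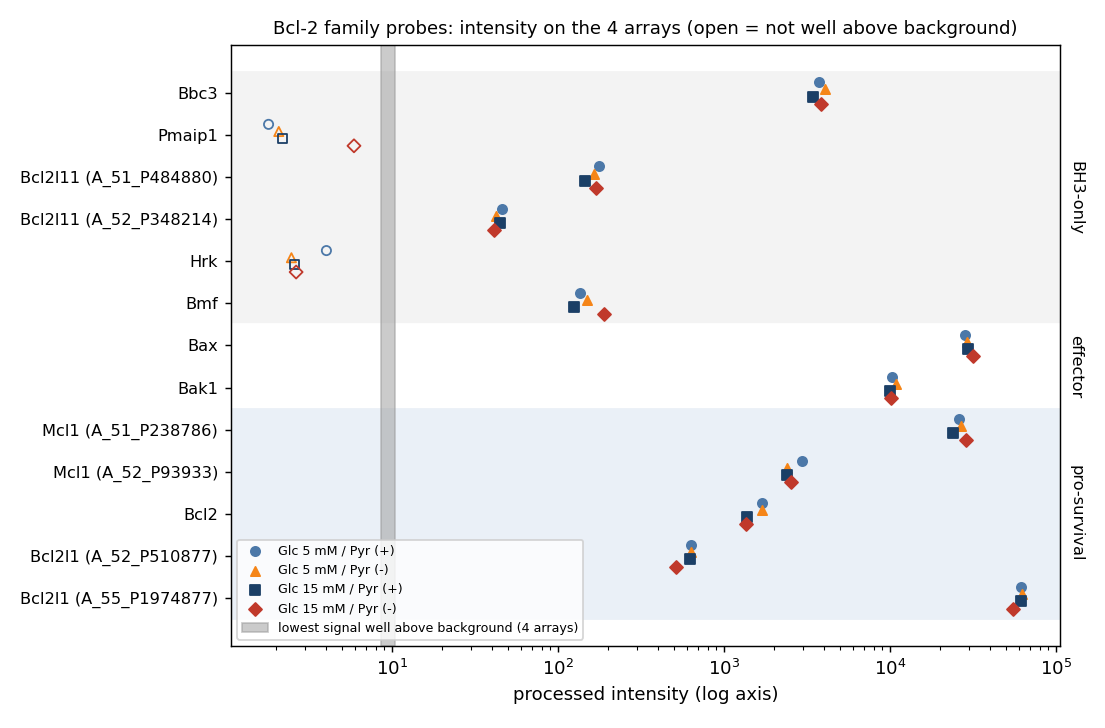
Processed intensity (log axis) of the 13 probes of the 10 genes on the 4 arrays, with 1 point per array, open where the probe was not well above background, and a grey band for the lowest passing intensity of the arrays (8.60 to 10.5). The points of each measured probe lie close together across conditions, and those of Pmaip1 and Hrk lie left of the band.

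No measured member differed by 2-fold between any pair of conditions compared. Differences are given on the log2 scale, after each intensity was set against the 75th percentile of its array. At 5 mM glucose, 0 of 11 member probes differed by at least 2-fold without pyruvate against with it, where 2.67% of 30764 tested probes did. For pyruvate at 15 mM glucose the count was 0 of 11 (background 4.18%). Between 15 and 5 mM glucose it was 0 of 11 with pyruvate (2.5%) and 0 of 11 without it (4.37%). At 1.5-fold the member counts were again 0 in these 4 comparisons, with backgrounds of 5.39%, 9.71%, 5.3% and 10.4%. These backgrounds include dim probes that passed on 1 side only and entered as bounds. The 11 members passed on all 4 arrays. Of the 27589 probes that did so, 231, 542, 216 and 597 reached 2-fold in the same order of comparisons. With so few member probes, a share of 0 lies near each of these backgrounds.

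The error that can be measured lies within an array. Among 399 probes printed 10 times, 281 were well above background on all arrays, and their median SD between spots was 0.07 on the log2 scale. For each member the SD of a difference between spots was taken from the 20 replicated probes nearest in signal, which gave 0.07 for Bax up to 0.26 for the dim Bcl2l11 probe A_52_P348214. This error leaves out any variation between cultures. Without pyruvate, 1 of 11 member probes differed by over 2 such SDs at 5 mM glucose (9.61% of all 27589 probes) and 4 of 11 at 15 mM glucose (24.6%). Between glucose concentrations, 2 of 11 did so with pyruvate (14.3%) and 5 of 11 without it (30.3%). The widest range over the 4 arrays was that of Bmf, at 0.62, and those of the other 10 probes were 0.11 to 0.31.

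The directions below hold relative to the other transcripts of the same array. Scaling to the spike-in probes instead moved the median over all probes as follows: the pyruvate comparison at 5 mM glucose shifted by −0.19, that at 15 mM by −0.03, the glucose comparison with pyruvate by −0.35 and that without it by −0.20. Under that scaling 7 of 11 member probes took the opposite sign in the first of these, 8 of 11 in the third and 5 of 11 in the last, against 0 of 11 in the pyruvate comparison at 15 mM glucose.

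Bmf encodes a BH3-only protein held at the actin cytoskeleton until the cell is stressed or detached. It read 136 in [Glc 5/Pyr (+)], 151 in [Glc 5/Pyr (−)], 126 in [Glc 15/Pyr (+)] and 191 in [Glc 15/Pyr (−)]. Relative to the 75th percentile these were −3.72, −3.53, −3.66 and −3.10. The array with 15 mM glucose and no pyruvate stood highest, and the other three lay within a narrower band below it. Without pyruvate Bmf was higher by 0.57 at 15 mM glucose, which is 1.48-fold and 3.97 times the SD of a difference between spots. At 5 mM glucose it was higher by 0.19, or 1.34 such SDs. In the absence of pyruvate it was higher by 0.43 (1.35-fold) at 15 than at 5 mM glucose, against 0.05 in its presence. Over the alternative scalings the first of these ranged from 0.23 (spike-in) to 0.47 and the second from −0.29 (spike-in) to 0.14, so that its sign turned. Of the 1000 probes nearest in signal, 7.5% differed at least as much as Bmf between the 15 mM arrays, and 13.4% between the arrays lacking pyruvate. Over the alternative scalings its pyruvate difference at 15 mM glucose ranged from 0.29, with normexp background correction, to 0.57, so that its log2 size moved by over 1.5 times.

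Bbc3 encodes Puma, a BH3-only protein best known as a p53 target, and is read at mm9 chr7:16903403-16903462 on the plus strand. Its intensity was 3769 in [Glc 5/Pyr (+)], 4057 in [Glc 5/Pyr (−)], 3459 in [Glc 15/Pyr (+)] and 3875 in [Glc 15/Pyr (−)]. Both arrays without pyruvate read above both arrays with it. Removing pyruvate went with a difference of 0.15 at 5 mM and 0.13 at 15 mM glucose, each under 2 SDs between spots, and the first was −0.04 with spike-in scaling. Its glucose differences were 0.04 with and 0.03 without pyruvate.

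Bcl2l11 encodes Bim, which can bind every pro-survival member and activate Bax directly. The probe over the BH3 codons read 176 in [Glc 5/Pyr (+)], 164 in [Glc 5/Pyr (−)], 146 in [Glc 15/Pyr (+)] and 171 in [Glc 15/Pyr (−)]. Without pyruvate it differed by −0.06 at 5 mM glucose and by 0.20 at 15 mM. The probe A_52_P348214 read 45.9, 42.6, 44.6 and 41.5 in the same order, with pyruvate differences of −0.07 and −0.14. All differences of both probes lay within 2 SDs between spots, and at 15 mM glucose the probes differed in sign. Neither probe separated the arrays with pyruvate from those without it at both glucose concentrations beyond that error.

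**Figure D2:**
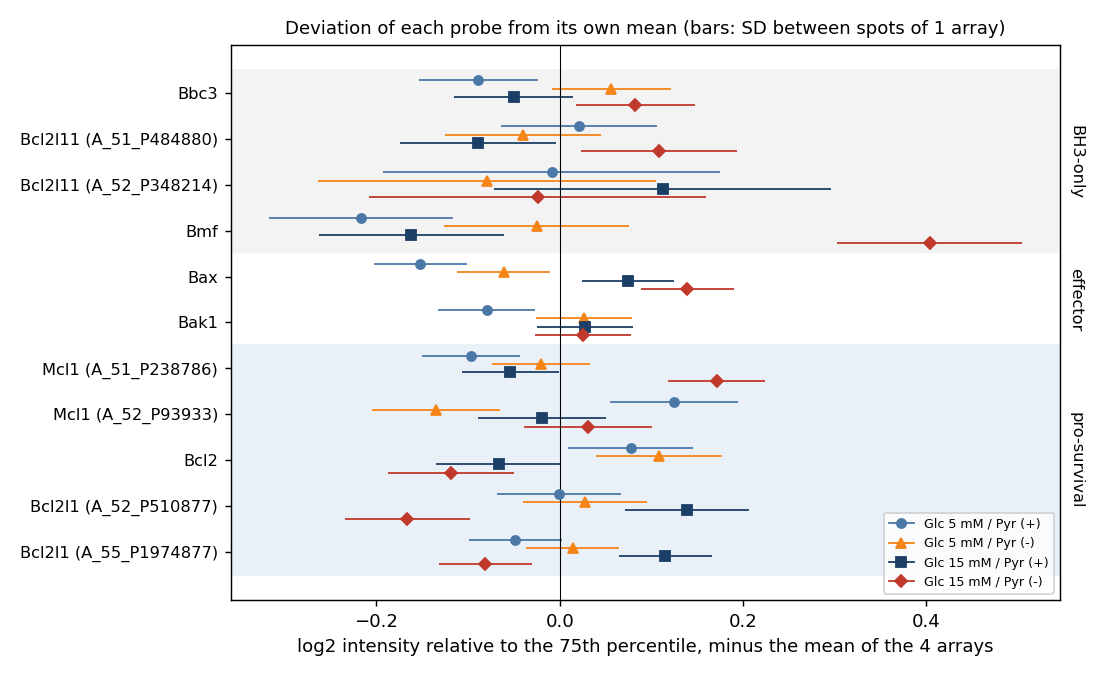
Log2 intensity relative to the 75th percentile of the array, minus the mean of the 4 arrays, for the 11 probes well above background on all arrays. Points are single arrays and bars the SD between spots of 1 array (from replicated probes of like signal). Bmf has the widest range, 0.62, with its [Glc 15/Pyr (−)] point apart, while both Bcl2l1 probes have their lowest point on that array.

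Bax and Bak1 encode the pore-forming effectors, on which every BH3-only signal converges. Bax (mm9 chr7:52717122-52717181, minus strand) read 28281 in [Glc 5/Pyr (+)], 29313 in [Glc 5/Pyr (−)], 29571 in [Glc 15/Pyr (+)] and 31586 in [Glc 15/Pyr (−)]. Relative to the 75th percentile these were 3.98, 4.07, 4.21 and 4.27, so both arrays at 15 mM glucose stood above both at 5 mM. The glucose difference of Bax was 0.23 with pyruvate, or 3.16 SDs between spots, and 0.20 without it, or 2.79 SDs. These became −0.12 and 0.00 with spike-in scaling. Of the 1000 probes nearest in signal, 6.7% and 31.1% differed at least as much. Its pyruvate differences were 0.09 and 0.06 at 5 and 15 mM glucose.

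Bak1 (mm9 chr17:27156807-27156866, minus strand) read 10374, 10871, 9987 and 10183 in the same order of conditions. It had the narrowest range of the 11 probes, 0.11 on the log2 scale, with 3 arrays at 2.64 and [Glc 5/Pyr (+)] at 2.54. No difference of Bak1 reached 2 SDs between spots.

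Mcl1 encodes a short-lived pro-survival protein whose mRNA and protein both turn over quickly. Its probes lie 1312 bases apart. A_51_P238786 (mm9 chr3:95466855-95466914, plus strand) read 26077 in [Glc 5/Pyr (+)], 26762 in [Glc 5/Pyr (−)], 24004 in [Glc 15/Pyr (+)] and 28667 in [Glc 15/Pyr (−)], highest on the last. Without pyruvate it was higher by 0.23 at 15 mM glucose (3.0 SDs between spots) and by 0.08 at 5 mM, the latter −0.11 with spike-in scaling. A_52_P93933 (mm9 chr3:95465543-95465602, plus strand) read 2975, 2418, 2406 and 2545, highest on [Glc 5/Pyr (+)]. Without pyruvate it differed by −0.26 at 5 mM glucose (2.63 SDs) and differed by 0.05 at 15 mM. The probes thus disagreed at 5 mM glucose, where 3.1% of the 1000 probes nearest in signal to A_52_P93933 differed at least as much as it did.

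Bcl2 encodes the founding pro-survival member. It read 1706 in [Glc 5/Pyr (+)], 1697 in [Glc 5/Pyr (−)], 1380 in [Glc 15/Pyr (+)] and 1359 in [Glc 15/Pyr (−)]. Both arrays at 15 mM glucose stood below both at 5 mM, by −0.14 with pyruvate and −0.23 without it. Spike-in scaling shifts all probes by −0.35 and −0.20 in these comparisons, so its values of −0.49 and −0.42 could not turn sign. They are no check on the direction. The difference without pyruvate was 2.35 SDs between spots. Of the 1000 probes nearest in signal, 25.6% differed at least as much. Its pyruvate differences were 0.03 and −0.05.

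Bcl2l1 encodes Bcl-xL and, by splicing, the shorter pro-death Bcl-xS. Its probes lie 48781 bases apart. A_52_P510877, the coding probe printed above, read 636 in [Glc 5/Pyr (+)], 631 in [Glc 5/Pyr (−)], 626 in [Glc 15/Pyr (+)] and 518 in [Glc 15/Pyr (−)]. A_55_P1974877 (mm9 chr2:152606404-152606463, minus strand), which also holds AATAAA, read 61942, 62951, 61982 and 55257. Relative to the 75th percentile these were −1.49, −1.46, −1.35 and −1.66 for the first and 5.11, 5.18, 5.28 and 5.08 for the second. On both probes [Glc 15/Pyr (+)] was highest and [Glc 15/Pyr (−)] lowest, and on the second the lowest array lay close to [Glc 5/Pyr (+)]. The glucose differences with pyruvate were 0.14 for the first and 0.16 for the second (2.28 SDs between spots). They turned to −0.21 and −0.19 with spike-in scaling, which puts [Glc 5/Pyr (+)] highest. The pyruvate difference at 15 mM glucose was −0.31 for the first (3.18 SDs between spots, 1.24-fold lower) and −0.20 for the second (2.74 SDs, 1.15-fold lower). At 5 mM glucose the differences were 0.03 and 0.06, which turned to −0.16 and −0.13 with spike-in scaling. Over the alternative scalings the values at 15 mM glucose ranged from −0.34 to −0.27 and from −0.24 to −0.18. Among probes nearest in signal, 16.9% and 5.9% differed at least as much. Probes of 1 gene share the same RNA and array and do not replicate the condition.

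**Figure D3:**
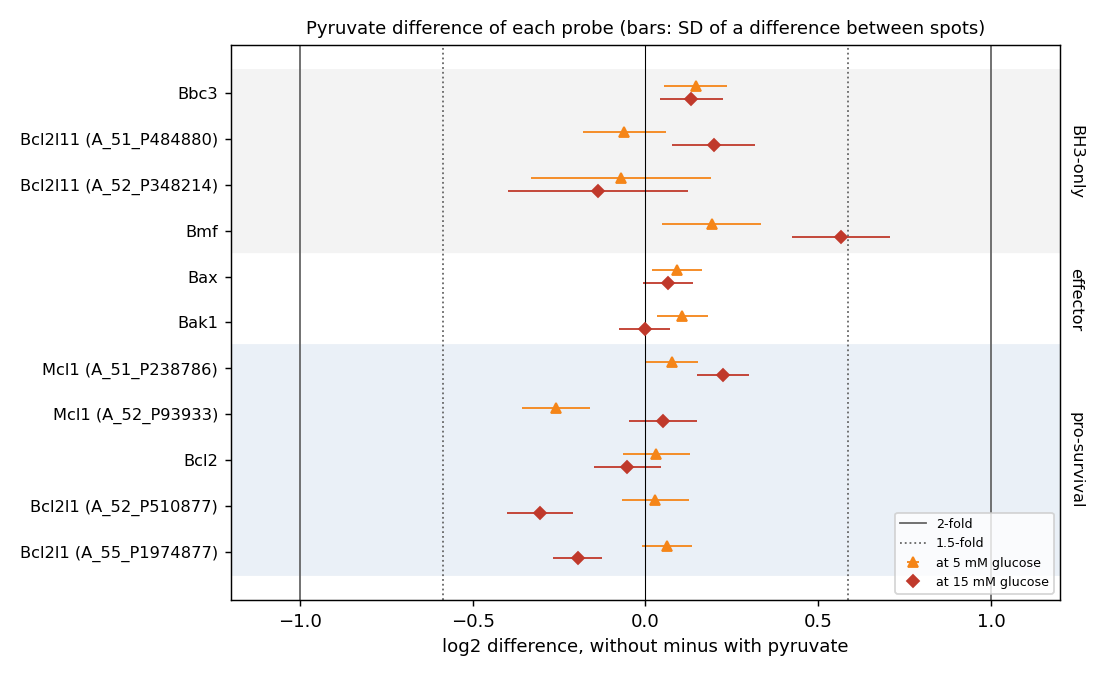
Log2 difference without minus with pyruvate of the 11 measured probes at 5 mM (triangles) and 15 mM glucose (diamonds), with bars for the SD of a difference between spots and lines at 1.5-fold and 2-fold. No point reaches 1.5-fold. Bmf at 15 mM glucose (0.57) lies farthest right and the coding Bcl2l1 probe at 15 mM glucose (−0.31) farthest left.

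By role, the pyruvate difference at 15 mM glucose averaged 0.24 over the 3 measured BH3-only genes, 0.03 over both effectors and −0.06 over the 3 pro-survival genes. The BH3-only mean exceeded the pro-survival mean by 0.30 at 15 mM glucose and by 0.10 at 5 mM. Without Bmf, an alternative chosen after its values were seen, the gap was 0.14 at 15 mM glucose and 0.04 at 5 mM. The gap at 15 mM glucose was 0.17 with normexp and 0.48 with no filter on dim probes, and that at 5 mM was 0.04 when each gene was read by its brightest probe and turned to −0.02 with no filter. The gap for glucose was 0.05 with pyruvate and 0.25 without it, and the latter was 0.13 without Bmf and 0.53 with no filter. The former turned to −0.03 with each gene read by its brightest probe and was 0.13 with quantile normalization. Over all 11 member probes the median pyruvate difference was 0.06 at 5 mM and 0.05 at 15 mM glucose, beside −0.02 and 0.03 over all probes. The spread of the members at 15 mM glucose, from −0.31 to 0.57, was wider than at 5 mM, from −0.26 to 0.19.

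The pyruvate difference at 15 mM minus that at 5 mM glucose was above 0 for 4 of 11 member probes, beside 57.4% of 27589 probes. It was highest for Bmf (0.37), the Mcl1 probe A_52_P93933 (0.31) and the Bcl2l11 probe over the BH3 codons (0.26), and lowest for the Bcl2l1 probes (−0.33 and −0.26). Over all probes its SD was 0.38, and its median 0.04, so each of these lies within 1 SD of that median. This difference of differences uses all 4 arrays and was not tested. The array [Glc 15/Pyr (−)] held the highest or lowest value of 8 of 11 member probes, beside 68.7% of all probes.

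An additive fit of pyruvate and glucose over all 4 arrays in limma, which counts any interaction as error and has 1 residual degree of freedom, called 0% of 31274 probes for either factor at an adjusted p of 0.05. At an unadjusted p of 0.05 it called 3.44% of probes for pyruvate and 4.78% for glucose, and 0 of 11 member probes for either. Bmf had an estimate of 0.38 ± 0.15 (SE) for the absence of pyruvate, with a 95% interval of −0.13 to 0.89 and an adjusted p of 0.985 in limma. The largest glucose estimates in size were 0.24 for Bmf (−0.27 to 0.75), 0.21 for Bax (−0.10 to 0.52) and −0.19 for Bcl2 (−0.51 to 0.14), each with a limma adjusted p of 0.772. These intervals include 0 and reach 0.51 or more in size.

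The genes whose values over the 4 arrays lay nearest to those of Bmf, after each was centred on its mean, were Zfp235, Cdc42ep2 and Zkscan14, at Euclidean distances of 0.02, 0.03 and 0.04 on the log2 scale. Zfp235 read 306, 345, 288 and 438 in the order used above, with [Glc 15/Pyr (−)] highest as for Bmf. The pattern was common. Of 27588 other probes well above background on all arrays, 11.4% had a correlation above 0.9 with Bmf over these 4 points, which share their arrays.

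Among the other Bcl-2 family genes, 14 of 16 listed were on the array and 13 were measured, with a median pyruvate difference of 0.02 at 5 mM and 0.10 at 15 mM glucose. Over the alternative scalings these medians ranged from −0.17 to 0.03 and from 0.01 to 0.10. At least 1 probe of Bcl2l14 and of Bcl2l15 passed 2-fold, in both cases dim probes. The Bcl2l14 probe A_51_P341336 read 8.78, 98.3, 26.2 and 9.02 in the order used above and was well above background only on [Glc 5/Pyr (−)] and [Glc 15/Pyr (+)]. Removal of pyruvate left it higher by at least 3.52 on the log2 scale at 5 mM glucose and at least 2.63-fold lower at 15 mM, and without pyruvate it was at least 9.07-fold lower at 15 than at 5 mM glucose. With normexp these log2 differences were 1.27, −0.43 and −1.12, so that the second no longer reached 2-fold. The other Bcl2l14 probe read 15.9, 16.2, 14.8 and 17.8. The Bcl2l15 probe A_55_P1975877 read 17, 77.8, 13.0 and 56.3, higher without pyruvate by 4.71-fold at 5 mM and by at least 4.25-fold at 15 mM glucose. With normexp its log2 differences were 0.87 and 0.42, both under 2-fold, and the mean over the Bcl2l15 probes at 15 mM glucose, 1.06, became 0.22. The main Bcl2l15 probe by signal read 342, 394, 348 and 363, so the probes of each of these genes disagree. Bid, a BH3-only protein cleaved by caspase-8, differed by −0.09 and 0.21, and Bnip3, a mitochondrial protein induced by hypoxia, by −0.03 and 0.23.

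Downstream, 0 of 14 apoptosome and caspase genes reached 2-fold in any comparison. Their median pyruvate difference was −0.03 at 5 mM and 0.10 at 15 mM glucose. Over the alternative scalings these medians were −0.21 to −0.02 and 0.03 to 0.10. Cycs, the cytochrome c gene, was highest at 15 mM glucose (0.39, and 0.25 at its lowest over the alternative scalings). Its probes there ran from 0.17 to 0.72. Of 10 measured death receptor genes, Fasl, the Fas ligand gene, was at least 2.94-fold lower at 15 than at 5 mM glucose with pyruvate, on a dim probe that read 34.5, 17.8, 9.95 and 15.2. With normexp that log2 difference was −0.12, under 2-fold. The list had median pyruvate differences of −0.05 and 0.12. Over the alternative scalings the first was −0.24 to −0.04 and the second −0.01 at its lowest. The 7 mitochondrial channel and carrier genes had 0 at 2-fold. Their medians were −0.01 and 0.07 (−0.20 to −0.0001 and 0.03 to 0.07 over the alternative scalings). Slc25a5, an adenine nucleotide translocase, was largest at 15 mM glucose (0.18). The 5 genes of PARP-dependent death had 0 at 2-fold and medians of 0.02 and 0.02, which turned to −0.17 and −0.03 at their lowest over the alternative scalings, with Parp1 at −0.14 at 15 mM glucose.

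The 4 genes listed for Mcl-1 ubiquitination, Huwe1, Fbxw7, Usp9x and Btrc, had 0 at 2-fold. The list does not separate genes that add ubiquitin from genes that remove it. A direction shared by these genes therefore gives no direction for ubiquitination. At 15 mM glucose all 4 were lower without pyruvate, with a median of −0.25 against −0.01 at 5 mM. Over the alternative scalings the 5 mM median ranged from −0.20 to 0.00, with 0 to 2 of 4 genes higher. Over all probes the median at 15 mM was 0.03. Of the 6781 probes past 2 SDs between spots there, 3247 were lower. Probes of 1 gene differed in size, at −0.35 and −0.07 for Fbxw7 and −0.17 and −0.08 for Btrc. How often 4 genes share a direction was not tested. Huwe1, which encodes the ubiquitin ligase Mule, read 12257 in [Glc 5/Pyr (+)], 11409 in [Glc 5/Pyr (−)], 10343 in [Glc 15/Pyr (+)] and 7829 in [Glc 15/Pyr (−)], a pyruvate difference of −0.06 and then −0.43. The last array stood below the other three. The list median at 15 mM glucose was −0.28 to −0.22 over the alternative scalings, with 0 of 4 genes higher under any of them. Each of these scalings moved the median over all probes down in this comparison, by −0.01 to −0.06. A sign could therefore hardly turn, and that count is no check on the direction.

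The transcription factors known to act upstream of BH3-only genes had a median pyruvate difference of 0.05 at 5 mM and 0.26 at 15 mM glucose. Over the alternative scalings these factors had a 5 mM median of −0.14 to 0.07. By the mean over their probes, 2 of 11 passed 2-fold at 15 mM, beside 4.18% of all tested probes. Of the 27589 probes well above background on all 4 arrays, 542 did. Ddit3, which encodes the stress factor Chop, read 5939 in [Glc 5/Pyr (+)], 8511 in [Glc 5/Pyr (−)], 4878 in [Glc 15/Pyr (+)] and 10531 in [Glc 15/Pyr (−)]. Both arrays without pyruvate stood above both arrays with it, by 0.56 at 5 mM and 1.08 at 15 mM glucose. Atf3, a stress-induced factor of the ATF family, read 1364, 1880, 1299 and 2653, with differences of 0.50 and 1.00. For Atf4 the mean over its probes differed by 0.51 and 0.98, the latter just under 2-fold. Its probes at 15 mM glucose differed by 0.91 and 1.06, on either side of that threshold. Over the alternative scalings the value at 15 mM glucose was 1.04 to 1.08 for Ddit3 and 0.95 to 1.00 for Atf3, which lies at the threshold, and the list median was 0.10 to 0.26. Bbc3 and Bcl2l11, which are known targets of Chop, differed by 0.13 and by 0.20 and −0.14 at 15 mM glucose, beside 1.08 for Ddit3. Trp53, the gene for p53, differed by 0.05 and 0.09.

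**Figure D4:**
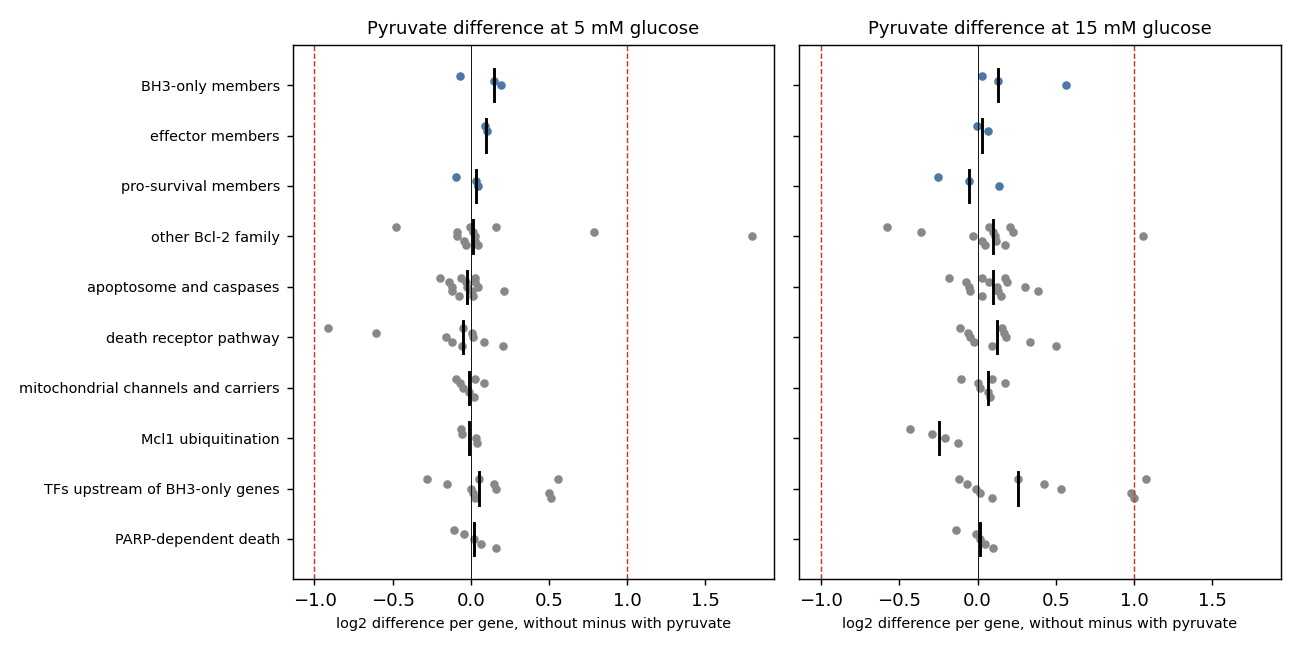
Log2 difference per gene without minus with pyruvate at 5 mM (left) and 15 mM glucose (right) for the members by role and for the other lists of the death pathway, with 1 point per gene (mean of its measured probes), a black bar for the median of the list and dashed lines at 2-fold. The members stay inside the dashed lines, and in the right panel 3 points reach the line at or beyond 1: Bcl2l15 (1.06), Ddit3 (1.08) and Atf3 (1.00).

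Promoter sequence was read from RefSeq (GRCm38.p6) for 9 of the 10 genes, in 16 windows of the 250 bases before a transcript start. On both strands 5 motifs were searched: C/EBP-ATF, CRE (TGACGTCA), E-box, forkhead and AP-1 (TGANTCA). A p53 motif was not among them. TGATGNAA, bound by dimers of C/EBP and ATF factors, is found in 3.45% of 32851 windows of all genes and in 1 member window, that of Hrk. The forkhead motif TGTTTAC is found in 3.17% of windows and in 1 window each of Bcl2l11 and Bbc3. The E-box CACGTG is found in 6.02% and in 1 window each of Bbc3 and Bax. TGACGTCA (1.55%) and TGANTCA (6.75%) are found in no member window, and none of the 5 in the 3 windows of Bmf. The stretches are printed because they hold every match among the members, with the motif in capitals and up to 20 bases on each side. They lie at chr2:128125791-128125837 (plus strand) for Bcl2l11, chr7:16310074-16310120 and chr7:16310347-16310392 (plus strand) for Bbc3, chr7:45466899-45466927 (minus strand) for Bax and chr5:118169630-118169677 (plus strand) for Hrk, all in GRCm38.p6. A match is a description of these letters and not of binding.
Bcl2l11 forkhead: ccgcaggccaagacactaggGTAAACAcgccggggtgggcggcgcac
Bbc3 forkhead: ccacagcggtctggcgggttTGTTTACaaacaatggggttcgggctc
Bbc3 E-box: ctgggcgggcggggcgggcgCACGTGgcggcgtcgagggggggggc
Bax E-box: ctgcagcgagcgatgatgatCACGTGact
Hrk TGATGNAA: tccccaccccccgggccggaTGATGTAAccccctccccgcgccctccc

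All 10 Schwann cell markers, among them Sox10, Ngfr and S100b, were well above background on all 4 arrays, and their median difference was 0.05 and 0.03 for pyruvate at 5 and 15 mM glucose (−0.14 to 0.09 and −0.13 to 0.03 over the alternative scalings). At least 1 probe passed on some array for 5 of 5 fibroblast, 5 of 5 macrophage, 3 of 4 neuron and 2 of 3 endothelial markers, while Syt1 and Cdh5 passed on none. Beside the Bmf difference at 15 mM glucose, Cd68, a lysosomal protein used as a macrophage marker, was higher without pyruvate by 0.88, and the other 4 macrophage markers differed by −0.27 to 0.07. Of the 3 measured neuron markers, Tubb3 differed by 0.30 and Snap25 by −0.18 there, and Rbfox3 was at least 3.99-fold higher on a dim probe that read 11.8, 20.2, 8.90 and 42.7. With normexp the log2 difference of Rbfox3 was 0.37, under 2-fold. Of its other probes, A_55_P2053372 was well above background only on [Glc 5/Pyr (+)] and A_51_P313651 on no array. The part of these markers in the member differences was not tested.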

How the data were processed

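Per the labels, RNA of IMS32 cells was measured on 1 Agilent one-colour array for each of 4 conditions. The deposited scanner output of Feature Extraction 11.5.1.1 holds a background-corrected intensity per spot. In a second deposited table each value is a ratio, the same intensity over 1 constant per array, which all 44397 features matched within 1e-05, with column medians of 0.0535 to 0.0566. GeneSpring GX is named without settings.

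Control and outlier spots were dropped, spots of a probe averaged, and log2 intensity taken relative to the array's 75th percentile over probes for mouse transcripts (1597 to 1788). Probes not well above background on 1 side of a comparison give a bound against the lowest passing signal. Called means at least 2-fold. The differences between 2 arrays have no test. The additive fit used limma 3.58.1 (R 4.3.3) with Benjamini-Hochberg adjustment over 31274 probes, and was tested on simulated data. Other steps used Python 3.11.15, numpy 2.4.6 and pandas 2.3.3.

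All member probes are named. Of other lists, genes whose mean over their probes reached 2-fold in any comparison are named. A list with none gives the gene with the largest pyruvate difference at 15 mM glucose. The 3 genes nearest in pattern to the member of widest range are named too. Bid, Bnip3, Trp53, Atf4, the Mcl-1 ubiquitination genes other than Huwe1 and the cell type markers were named after their values were seen. The members and lists were chosen with earlier results of these data known. Alternatives were other scalings, the deposited ratio, normexp with an offset of 50, stricter or no filtering of dim probes, 1 probe per gene (the brightest), 1.5-fold as threshold, an intensity trend and leaving out Bmf.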

Additional observations from a re-analysis of the deposited data

How the results depend on the processing

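Of 408 values recomputed under 11 alternatives, 342 were labelled the same and 66 moved. Of the called values 0 turned, since no member was called. The 342 are no measure of stability, because many could not change. Measured member probes passed on all arrays, so dropping the filter on dim probes left their values identical. Scaling an array by a constant cannot change the gap between BH3-only and pro-survival genes. Counts were not judged by spot error: 766 (glucose with pyruvate) and 1108 with spike-in scaling were labelled the same. Signs changed 30 times among uncalled values, 23 of them with spike-in scaling, which put the member median at −0.13 (pyruvate at 5 mM glucose), −0.29 (glucose, pyruvate present) and −0.14 (glucose, pyruvate absent). With normexp the gap between BH3-only and pro-survival genes was 0.17 for pyruvate at 15 mM glucose, and all probes at 2-fold numbered 42 for pyruvate at 5 mM glucose, 131 at 15 mM, 40 for glucose with pyruvate and 154 without. The pyruvate calls of the additive fit were then 2. With only probes well above background on all arrays these counts were 231, 542, 216 and 597. With no filter on dim probes they were 1648, 2539, 1621 and 2752, the gap was −0.024 (pyruvate at 5 mM glucose), 0.48 (at 15 mM) and 0.53 (glucose, pyruvate absent), and 1 member probe, Pmaip1, reached 2-fold between the 15 mM arrays and 1, again Pmaip1, between the arrays lacking pyruvate, at signals below background. At 1.5-fold the counts were 1658, 2875, 1621 and 3145. Leaving out Bmf, chosen after seeing the data, gave gaps of 0.14 (pyruvate at 15 mM glucose) and 0.13 (glucose, pyruvate absent). The causes were not tested. No replicate could be left out, and no paired analysis was possible because each condition has 1 array. The members not well above background, Pmaip1 and Hrk, are limited by signal.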
